A study of Mus musculus with 9 samples.

Results

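CD8 T cells primed in the mesenteric lymph node (MLN), the node that drains the intestine, were compared with naive CD8 T cells. The comparison uses 6 of the 9 libraries of the series, chosen by the tissue and treatment in their labels: 3 libraries of naive cells and 3 of MLN-primed cells. All are OT-I cells, mouse CD8 T cells whose transgenic receptor sees an ovalbumin peptide presented by MHC class I. The spleen was the source of the naive cells and the MLN that of the primed ones, so organ and priming change together and cannot be told apart. The word "oral" stands in the titles of the MLN group. The series also holds 3 libraries of spleen-primed OT-I cells from the spleen, with "iv" in their titles. The priming agent, the time after priming, the age of the mice and the gate for the cells are not given in the labels. Nothing there says that libraries came from separate animals, so the p-values speak of the spread among these libraries, which may be technical. The series title is about retinoic acid signals during priming and later CD103+ resident memory cells of the intestine.

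A naive CD8 T cell circulates through lymphoid organs, enters nodes with the help of CCR7, and is kept small and quiescent by factors such as FOXO1, KLF2 and TCF1. Priming by antigen makes it grow, divide fast and load granules with granzymes, under factors such as T-bet and BLIMP1. Priming in gut-draining nodes is known for retinoic acid from local dendritic cells, which imprints the gut homing receptors CCR9 and the integrin of ITGA4 and ITGB7, while CD103, encoded by Itgae, binds E-cadherin on epithelium.

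Expression was given as FPKM, fragments scaled by transcript length and library total, and 10185 of 23936 genes with a symbol reached 1 FPKM in at least 3 of the 9 libraries and were tested on log2(FPKM + 1). On that scale changes of low genes are understated. Pearson correlations across genes were 0.9891 to 0.9902 between naive libraries, 0.9869 to 0.9948 between MLN-primed libraries and 0.7866 to 0.8034 between the groups. Relative depth, read from the steps between the lowest FPKM values and set to 1 for naive 1, was 1 to 1.25 in naive and 1.25 to 1.64 in MLN-primed libraries. FPKM are relative values: less RNA of a gene per cell and fewer cells that carry it cannot be told apart.

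CD8 T cell markers were abundant in both groups, with Cd8b1 at 1308, 1136 and 1313 FPKM in naive and 572, 625 and 605 FPKM in MLN-primed libraries. Several defining markers of other cells were low in MLN-primed libraries and higher in some naive ones, while other markers went the other way. The neutrophil gene S100a8 was at 1.82, 12.1 and 19.6 FPKM in naive libraries and listed at 0 in the MLN-primed ones. Lyz2 of phagocytes was at 2.12, 5.5 and 9.75 FPKM in naive and 0.125, 0.219 and 0.165 FPKM in MLN-primed libraries. Summed FPKM of the 14 myeloid markers with a value were 11.7, 39.6 and 59.2 in naive libraries and 15.8, 19.2 and 18.3 in MLN-primed ones, where Itgam and Cd68 made up most of the sum. Of 5 myeloid markers tested, 3 were called lower in MLN-primed cells and 2 higher, Itgam (log2 change 2.95) and Cd68 (2.1). Of the MHC class II genes, Cd74 was at 38.1, 61.3 and 66.8 FPKM in naive and 2.26, 1.7 and 2.0 FPKM in MLN-primed libraries. The 13 markers of dendritic cells and MHC class II summed to 173, 246 and 266 FPKM in naive and 123, 123 and 136 FPKM in MLN-primed libraries. Of 10 B cell markers 8 were under the filter and 1, Cd22, was called higher (log2 change 0.93). No B cell marker was called higher without MLN-primed 2 or MLN-primed 3. Of 6 CD4 T cell markers tested, 3 were higher and 2 lower. The NK cell gene Ncr1 reached at most 0.543 FPKM in any of the 6 libraries. Summed markers of red cells and platelets were 0.357, 97.4 and 0.394 FPKM in the MLN-primed libraries, high in MLN-primed 2 alone, against 44.6, 14.4 and 88 FPKM in the naive ones. The part of these other cells in the results was not tested, and their genes are named below where they are among the largest changes.

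Most genes differed between the groups. At an adjusted p of 0.05 (limma-trend, Benjamini-Hochberg adjustment), 4635 genes, or 45.5% of those tested, were higher in MLN-primed cells and 3385, or 33.2%, were lower. The change was at least 1 on the log2 scale for 2122 of the higher and 1321 of the lower genes, and at least 3 for 275 and 98. The median change of all genes tested was 0.15. Another scaling of the libraries moved that median to 0.01 (median-of-ratios) or -0.04 (quantile normalisation), with 51.4% and 48.1% of calls higher in place of 57.8%, so the direction of small changes depends on the scaling. Gene lists below are therefore read against 45.5% and 33.2% called and against a median of 0.15. The 40 lists were chosen with earlier results of these data known. They held 1177 entries, of which 1073 passed the filter on low values, and counts are over those that passed.

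**Figure D1:**
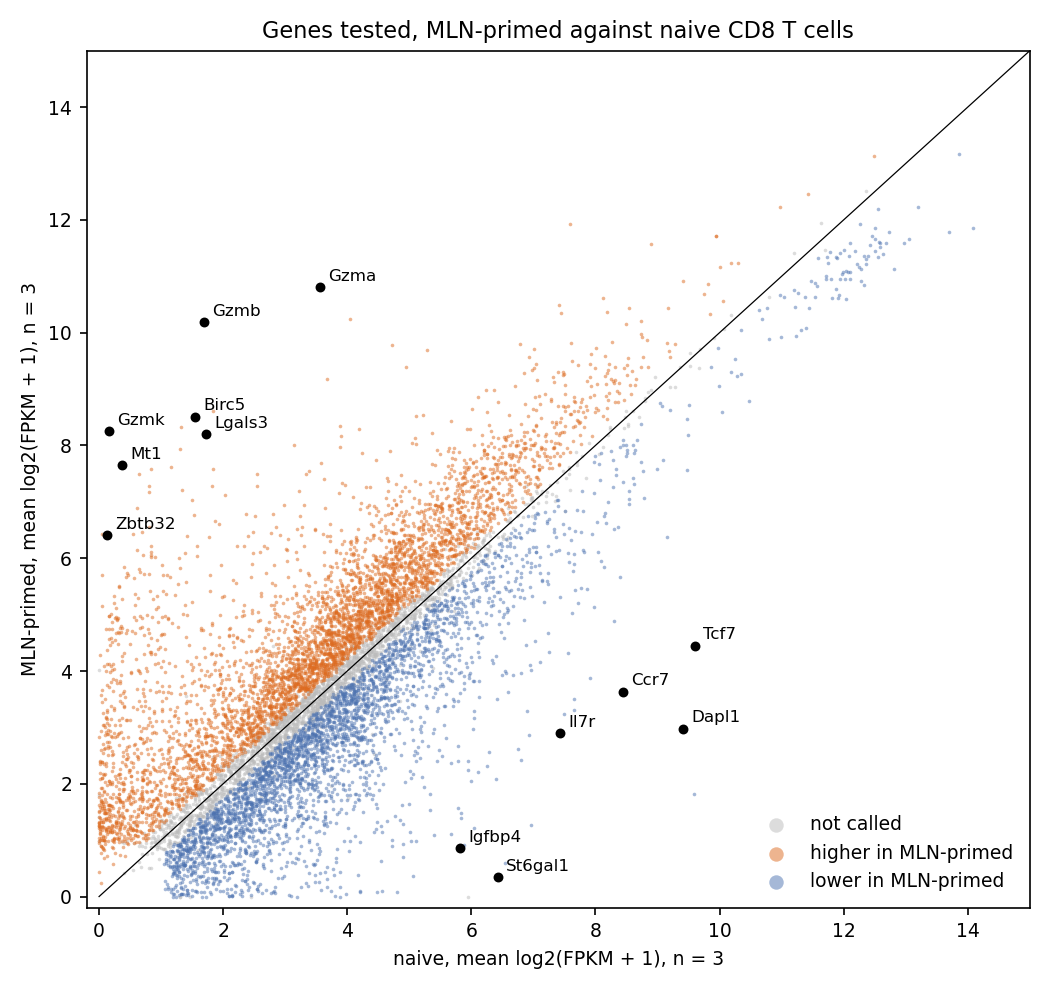
Mean log2(FPKM + 1) of the 3 naive libraries (x axis) and the 3 MLN-primed libraries (y axis) for the 10185 genes tested, with the line of equal values. Orange genes were higher and blue genes lower in MLN-primed cells at an adjusted p of 0.05, grey genes were not called, and black points are 13 of the genes with the largest changes. Granzyme genes stand far above the line and Dapl1 and Tcf7 far below it.

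The 15 largest rises included 3 granzyme genes, 2 metallothionein genes and 8 genes of DNA replication or mitosis. Gzmb, which encodes the granule protease granzyme B (chr14:56258836-56262334, build GRCm38.p6), was at 1.75, 1.81 and 3.34 FPKM in naive and 1266, 1145 and 1097 FPKM in MLN-primed libraries (log2 change 8.5 ± 0.16, adjusted p = 6.4e-11, ± is SE). Gzmk, for granzyme K, was at 0.0766, 0.123 and 0.138 FPKM in naive and 368, 288 and 267 FPKM in MLN-primed libraries (log2 change 8.1 ± 0.14, adjusted p = 3.6e-11). Gzma, for granzyme A, was at 7.37, 9.79 and 17 FPKM in naive and 1993, 1733 and 1686 FPKM in MLN-primed libraries (log2 change 7.26 ± 0.24, adjusted p = 2.35e-09). For all 3 granzymes every MLN-primed library was far above every naive one, while the naive levels ranked Gzma above Gzmb above Gzmk. Mt1 and Mt2, which encode metallothioneins that bind zinc and copper, were near 0 in naive cells. Mt1 was at 0, 0.607 and 0.338 FPKM in naive and 212, 203 and 188 FPKM in MLN-primed libraries (log2 change 7.29 ± 0.17, adjusted p = 2.43e-10). Mt2 was at 0, 0 and 0.109 FPKM in naive and 88.3, 96 and 72.8 FPKM in MLN-primed libraries (log2 change 6.38 ± 0.17, adjusted p = 4.58e-10). Zbtb32, a zinc finger repressor of lymphocytes, was at 0.121, 0.0974 and 0.0548 FPKM in naive and 81.8, 80.7 and 88.8 FPKM in MLN-primed libraries (log2 change 6.28 ± 0.08, adjusted p = 1.75e-11). Lgals3, for the sugar-binding protein galectin-3, was at 1.7, 2.33 and 2.95 FPKM in naive and 323, 277 and 285 FPKM in MLN-primed libraries (log2 change 6.49 ± 0.13, adjusted p = 8.31e-11). The other 8 of the 15 were Birc5, Rrm2, Ccna2, Ube2c, Tk1, Ccnb2, Ccnb1 and Plk1, all genes of DNA replication or mitosis.

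Among the 15 largest falls, of which 14 are named, were genes of recirculation and quiescence. Dapl1, abundant in naive T cells, was at 597, 711 and 739.8 FPKM in naive and 6.37, 5.62 and 9.03 FPKM in MLN-primed libraries (log2 change -6.43 ± 0.21, adjusted p = 2.04e-09). Tcf7, for the factor TCF1, was at 739, 776 and 809.6 FPKM in naive and 15.8, 24.9 and 23 FPKM in MLN-primed libraries (log2 change -5.15 ± 0.20, adjusted p = 5.77e-09). Both genes were high in every naive library and a small fraction of that in every MLN-primed one, with no overlap between the groups. St6gal1, a sialyltransferase, was at 88.4, 78.5 and 88.5 FPKM in naive and 0.437, 0.225 and 0.154 FPKM in MLN-primed libraries (log2 change -6.09 ± 0.10, adjusted p = 3.6e-11). The others were Tdrp (-5.95), Nsg2 (-5.7), the IL-6 receptor gene Il6ra (-4.97), Igfbp4 (-4.95), Fam101b (-4.82), Ccr7 (-4.8), Atp1b1 (-4.56), Il7r (-4.53), Pdlim4 (-4.46) and the MHC class II genes H2-Ob (-4.72) and H2-Aa (-4.71), as log2 changes. H2-Aa moved with the MHC class II markers above, at 23.6, 36.7 and 39.7 FPKM in naive and 0.329, 0.173 and 0.359 FPKM in MLN-primed libraries. Pdlim4 varied most among naive libraries, with 25, 39.1 and 11.6 FPKM.

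All 30 listed genes of the naive and quiescent state were lower in MLN-primed cells, with a median change of -2.72, and 30 were lower under both other scalings. The list was chosen with earlier results of these data known, so this count is a description and no test. Il7r, for the receptor chain through which IL-7 keeps naive cells alive, was at 157, 177 and 179 FPKM in naive and 5.89, 6.74 and 6.71 FPKM in MLN-primed libraries (log2 change -4.53 ± 0.10, adjusted p = 1.84e-10). Btg1, an antiproliferative gene, was at 196, 207 and 200.5 FPKM in naive and 8.24, 9.33 and 9.29 FPKM in MLN-primed libraries (log2 change -4.34 ± 0.07, adjusted p = 3.6e-11). Tsc22d3, which encodes the glucocorticoid-induced protein GILZ, was at 222, 279 and 225 FPKM in naive and 13.9, 13.5 and 13.9 FPKM in MLN-primed libraries (log2 change -4.03 ± 0.10, adjusted p = 2.53e-10). The spread within each group was small against these changes. Lef1, the partner of TCF1, fell less, from 197 ± 26.6 to 32.2 ± 7.99 FPKM as mean ± SD of 3 libraries (log2 change -2.6 ± 0.20, adjusted p = 1.09e-06). Klf2, the factor that drives S1pr1, fell from 379 ± 79.7 to 131 ± 7.26 FPKM (log2 change -1.5 ± 0.14, adjusted p = 3.32e-06). Id3, an inhibitor of E proteins kept in naive and memory cells, fell from 65.4 ± 13.8 to 13.2 ± 0.756 FPKM (log2 change -2.21 ± 0.13, adjusted p = 1.07e-07). Together the 30 genes made up 0.754% ± 0.0456 of all FPKM in naive and 0.108% ± 0.015 in MLN-primed libraries.

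Lymphoid homing and egress genes numbered 9, of which 7 fell and 2 rose, with a median of -1.44. Ccr7, the receptor for the chemokines of the T cell zone, was at 337, 336 and 364 FPKM in naive and 13.1, 9.25 and 12.3 FPKM in MLN-primed libraries (log2 change -4.8 ± 0.12, adjusted p = 3.97e-10). S1pr1, the sphingosine phosphate receptor that leads cells out of nodes, fell less, with 222, 219 and 227 FPKM in naive and 70.3, 73.4 and 65.4 FPKM in MLN-primed libraries (log2 change -1.66 ± 0.07, adjusted p = 1.14e-08). Cd69, whose protein holds S1PR1 inside the cell and which also marks recent receptor signals, was at 57.9, 141 and 55.8 FPKM in naive and 4.06, 4.54 and 6.24 FPKM in MLN-primed libraries (log2 change -3.73 ± 0.30, adjusted p = 1.39e-06). Naive 2 was the highest library for Cd69, and without it the change was -3.3, adjusted p = 1.24e-07. Itgal, for the integrin chain LFA-1 alpha, and S1pr4 were the members called higher (0.50 and 0.32), and both changes were negative under quantile normalisation.

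**Figure D2:**
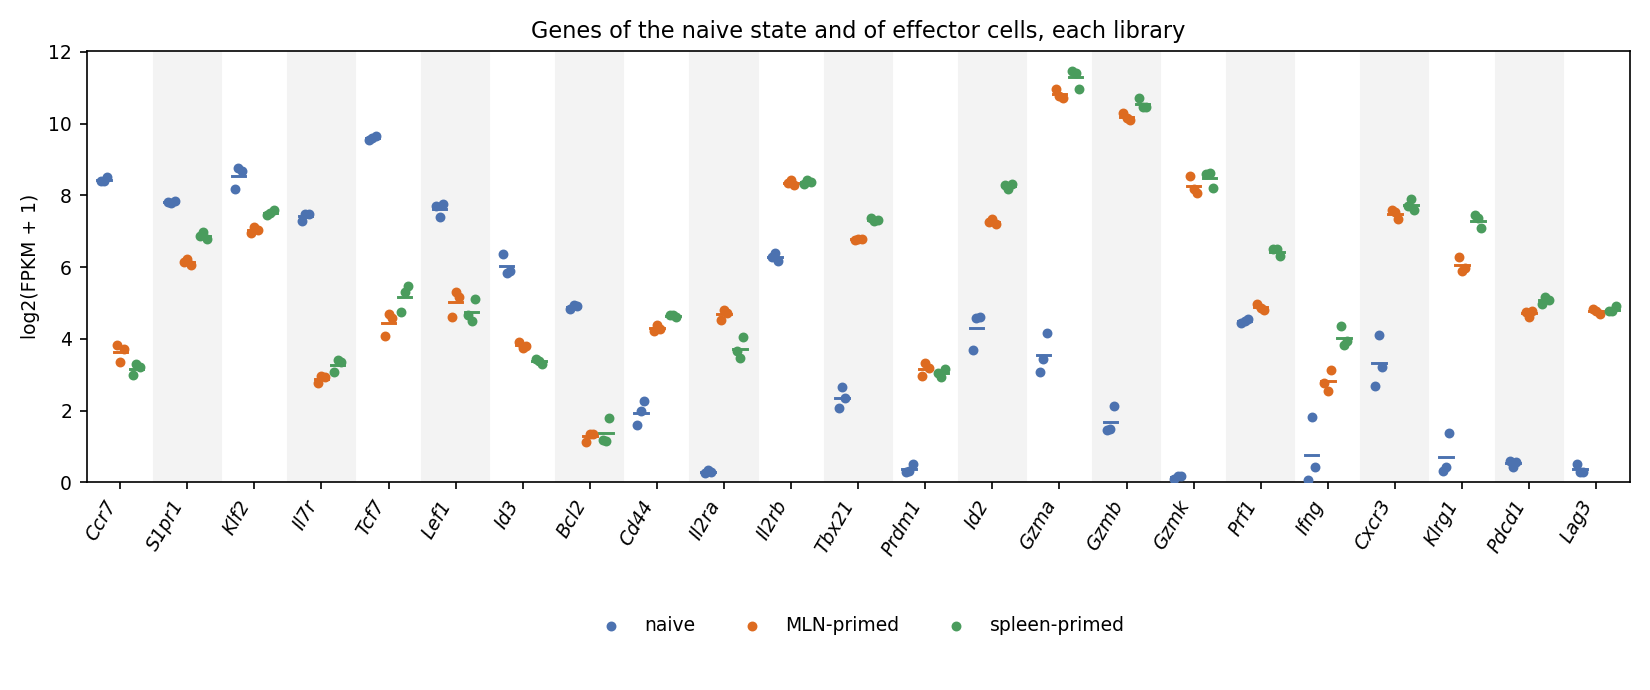
log2(FPKM + 1) of 23 genes in each library, with 3 points per group and a bar at the mean. Ccr7, Il7r, Tcf7 and Bcl2 lie lower and Gzma, Gzmb, Gzmk, Tbx21 and Klrg1 higher in MLN-primed (orange) than in naive cells (blue), and spleen-primed cells (green) are shown for comparison.

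Of 21 genes of cytotoxic granules, 16 were higher, 1 lower and 4 not called, with a median of 1.05. Beside the granzymes, the largest rises were in protease inhibitors that shield the killer cell, Serpinb9 from 4.73 ± 0.73 to 107 ± 11 FPKM (log2 change 4.24 ± 0.11, adjusted p = 3.97e-10) and Serpinb6b from 9.46 ± 1.47 to 186 ± 7.87 FPKM (log2 change 4.17 ± 0.10, adjusted p = 2.25e-10). Stx11, for a syntaxin needed for granule release, rose from 1.04 ± 0.0954 to 17 ± 0.549 FPKM (log2 change 3.15 ± 0.08, adjusted p = 3.11e-10). Prf1, for the pore protein perforin, rose by much less than the granzymes on this scale, with 20.6, 21.7 and 22.7 FPKM in naive and 30.7, 28.2 and 27.2 FPKM in MLN-primed libraries (log2 change 0.39 ± 0.08, adjusted p = 0.00122). The Prf1 change was 0.04, adjusted p = 0.655 under quantile normalisation, so its call depended on the scaling. Srgn, for the granule proteoglycan serglycin, fell from 361 ± 21.3 to 223 ± 16.3 FPKM (log2 change -0.69 ± 0.09, adjusted p = 3.84e-05). The list made up 0.18% ± 0.00983 of FPKM in naive and 0.818% ± 0.0253 in MLN-primed libraries. NK cell markers summed to 18.8, 29.8 and 43.6 FPKM in naive and 2005, 1746 and 1701 FPKM in MLN-primed libraries, nearly all of it Gzma, with Ncr1 near 0.

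Among 12 cytokines and chemokine ligands, 7 were higher and 4 lower (58.3% and 33.3%, against 45.5% and 33.2% of all genes tested). Ifng was low in all libraries, at 0.0466, 2.55 and 0.337 FPKM in naive and 5.83, 4.88 and 7.71 FPKM in MLN-primed libraries (log2 change 2.05 ± 0.38, adjusted p = 0.000656). Ccl5, for a chemokine that draws T cells and monocytes, was at 68.1, 253 and 130.0 FPKM in naive and 273, 447 and 505 FPKM in MLN-primed libraries (log2 change 1.58 ± 0.40, adjusted p = 0.00407). The naive libraries spread widely for Ccl5 and came close to MLN-primed 1 without overlap. Ltb, for lymphotoxin beta, was at 564, 589 and 548 FPKM in naive and 81.9, 77.3 and 86.1 FPKM in MLN-primed libraries (log2 change -2.78 ± 0.06, adjusted p = 2.05e-10). Tnfsf8, for the CD30 ligand, fell from 10.1 ± 1.19 to 0.196 ± 0.0457 FPKM (log2 change -3.22 ± 0.11, adjusted p = 2.55e-09). The largest changes of this list were thus falls.

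Of 27 effector transcription factors, 16 were higher, 6 lower and 5 not called, with a median of 0.93. Tbx21, for T-bet, the main effector factor, was at 3.22, 5.32 and 4.08 FPKM in naive and 108, 108 and 109.9 FPKM in MLN-primed libraries (log2 change 4.42 ± 0.12, adjusted p = 6.14e-10). Prdm1, for BLIMP1, was at 0.217, 0.254 and 0.429 FPKM in naive and 6.85, 9.11 and 8.11 FPKM in MLN-primed libraries (log2 change 2.79 ± 0.12, adjusted p = 9.86e-09). Id2, the E protein inhibitor of effector cells, rose from 19.5 ± 6.56 to 153 ± 7.77 FPKM (log2 change 2.97 ± 0.21, adjusted p = 4.35e-07), the opposite direction to Id3. The antigen-induced factors Irf4 and Batf rose from 0.737 ± 0.406 to 15 ± 0.693 FPKM and from 28.3 ± 3.51 to 113 ± 5.55 FPKM. Ezh2, a histone methyltransferase of dividing cells, rose from 6.55 ± 0.568 to 84.9 ± 8.06 FPKM. Zeb2 and Eomes rose less, by 1.56 ± 0.12 and 0.98 ± 0.17. Tox, Bcl6, Nr3c1, Klf6 and Stat3 were lower, with Tox from 18.9 ± 2.73 to 3.12 ± 0.464 FPKM (log2 change -2.27 ± 0.15, adjusted p = 3.74e-07).

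Of 8 inflammatory chemokine receptors 7 were higher, with a median of 2.84. Cxcr3, the receptor for interferon-induced chemokines, was at 5.48, 16.2 and 8.33 FPKM in naive and 194, 184 and 161 FPKM in MLN-primed libraries (log2 change 4.15 ± 0.28, adjusted p = 3.44e-07). Ccr2 rose from 1.18 ± 0.418 to 29.9 ± 2.72 FPKM, Cx3cr1 from 0.691 ± 0.323 to 13.2 ± 1.38 FPKM and Cxcr6 from 16.7 ± 0.405 to 77.2 ± 8.36 FPKM. Cxcr5, the B cell follicle receptor, was the member called lower, from 4.94 ± 0.891 to 0.136 ± 0.0261 FPKM. Of 11 killer cell receptors 8 were higher and 2 lower. Klrg1, a marker of terminal effector cells, was at 0.243, 0.359 and 1.58 FPKM in naive and 77.4, 59 and 62.6 FPKM in MLN-primed libraries (log2 change 5.36 ± 0.24, adjusted p = 1.99e-08). Klrk1, for NKG2D, was at 1.71, 4.88 and 3.55 FPKM in naive and 19.6, 15 and 17 FPKM in MLN-primed libraries (log2 change 2.12 ± 0.23, adjusted p = 1.35e-05). Klrd1 fell from 169.8 ± 23.8 to 70.1 ± 4.21 FPKM while its partner chain Klrc1 rose from 2.7 ± 1.66 to 50.8 ± 1.98 FPKM.

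Of 13 inhibitory receptors 9 were higher and 3 lower. Pdcd1, for PD-1, was at 0.499, 0.356 and 0.475 FPKM in naive and 25.9, 23.4 and 26.4 FPKM in MLN-primed libraries (log2 change 4.18 ± 0.09, adjusted p = 1.08e-10). Lag3 was at 0.435, 0.224 and 0.218 FPKM in naive and 27.3, 26.7 and 24.8 FPKM in MLN-primed libraries (log2 change 4.4 ± 0.09, adjusted p = 1.07e-10). Havcr2, for TIM-3, was at 0.977, 0.805 and 1.41 FPKM in naive and 38.6, 58.2 and 58.9 FPKM in MLN-primed libraries (log2 change 4.67 ± 0.16, adjusted p = 3.45e-09). All 3 were near the 1 FPKM minimum or below it in each naive library and well above it in each MLN-primed one. Tigit rose from 0.905 ± 0.233 to 33.5 ± 0.816 FPKM, while Btla and Cd274, for PD-L1, fell, from 16.4 ± 2.24 to 8.88 ± 0.554 FPKM and from 6.23 ± 0.579 to 1.87 ± 0.281 FPKM. Among 18 costimulatory receptors 10 were higher and 7 lower (55.6% and 38.9%, against 45.5% and 33.2% of all genes tested). Slamf7 rose from 1.03 ± 0.214 to 30 ± 1.9 FPKM and Tnfrsf9, for 4-1BB, from 1.89 ± 0.161 to 13.3 ± 1.79 FPKM, while Cd27 fell from 121 ± 13.9 to 70.8 ± 4.42 FPKM and Tnfrsf26 from 35.9 ± 0.451 to 3.36 ± 0.424 FPKM. Cd44, the hyaluronan receptor of antigen-experienced cells, was at 2.02, 2.95 and 3.78 FPKM in naive and 17.8, 19.8 and 18.4 FPKM in MLN-primed libraries (log2 change 2.35 ± 0.14, adjusted p = 1.63e-07).

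Cytokine receptors changed in both directions, 6 higher and 14 lower of 22, with a median of -0.45. Il2ra, for the high-affinity chain of the IL-2 receptor, was at 0.208, 0.268 and 0.229 FPKM in naive and 22.3, 26.9 and 25.4 FPKM in MLN-primed libraries (log2 change 4.38 ± 0.14, adjusted p = 1.93e-09). Il2rb, for the chain shared with the IL-15 receptor, rose from 77.4 ± 5.94 to 326 ± 14.7 FPKM. The IL-12 receptor genes Il12rb1 and Il12rb2 rose from 2.05 ± 0.317 to 16.4 ± 0.404 FPKM and from 1.74 ± 0.244 to 21.1 ± 3.11 FPKM. Ifngr2, for a chain of the interferon gamma receptor, fell to near 0, with 18.2, 17.1 and 16.8 FPKM in naive and 0.0591, 0.0206 and 0.078 FPKM in MLN-primed libraries (log2 change -4.13 ± 0.07, adjusted p = 4.79e-11). Il6st, the signal chain of the IL-6 family, fell from 63.5 ± 13 to 3.19 ± 0.637 FPKM, and Il4ra fell from 38.3 ± 0.65 to 5.39 ± 0.528 FPKM. Il2rg, picked after its values were seen, for the common gamma chain shared by the IL-2 and IL-7 receptors, fell from 427 ± 30.9 to 208 ± 10.4 FPKM (log2 change -1.03, adjusted p = 4.31e-07), so the IL-2 receptor chains differed in direction.

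Of 13 gut homing genes 9 were tested, and of these 7 were higher and 2 lower, with a median of 1.01, and the lower ones were Ccr9 and Itgae. Ccr9 (chr9:123767211-123783457), for the receptor of the small intestinal chemokine CCL25, was at 44.8, 32.5 and 35.7 FPKM in naive and 16.3, 22.9 and 22.2 FPKM in MLN-primed libraries (log2 change -0.85 ± 0.15, adjusted p = 0.000344). Itgae was at 27.6, 24.2 and 18.1 FPKM in naive and 3.1, 3.2 and 2.71 FPKM in MLN-primed libraries (log2 change -2.59 ± 0.14, adjusted p = 6.05e-08). Both were therefore expressed by naive cells and lower after priming in the MLN. Itga4, for the alpha 4 chain, was at 52.5, 48.2 and 55.7 FPKM in naive and 127, 169 and 133 FPKM in MLN-primed libraries (log2 change 1.43 ± 0.11, adjusted p = 1.21e-06). Its partner Itgb7 was at 217, 210.3 and 224 FPKM in naive and 459.7, 446 and 409.9 FPKM in MLN-primed libraries (log2 change 1.01 ± 0.07, adjusted p = 5.69e-07). Itgb1, which pairs with alpha 4 for other tissues, rose from 23.6 ± 1.29 to 133 ± 11.4 FPKM (log2 change 2.45 ± 0.08, adjusted p = 1.62e-09). Gpr55 rose from 0.259 ± 0.044 to 7.42 ± 2.0 FPKM and the sialyltransferase gene St3gal4 from 12.4 ± 0.352 to 22.2 ± 1.06 FPKM. Gpr15, a receptor for homing to the colon, was picked after its values were seen and was at 0.432, 0.833 and 0.975 FPKM in naive and 3.55, 4.9 and 3.71 FPKM in MLN-primed libraries (log2 change 1.54 ± 0.14, adjusted p = 3.87e-06).

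Spleen-primed cells show how these levels compare with cells primed elsewhere, and here the test is the contrast between both primed groups, in which 3093 genes, or 30.4%, were called in either direction. Ccr9 was at 0.0349, 0.0807 and 0.0419 FPKM in the spleen-primed libraries, below the MLN-primed ones by a log2 difference of 4.33 ± 0.15, adjusted p = 7.94e-07. Itgae was at 0.217, 0.214 and 0.304 FPKM there (1.68 ± 0.14, adjusted p = 4.57e-05). The order of levels was naive, MLN-primed and spleen-primed for both genes, and no neighbours overlapped. Gpr15 was at 1.21, 0.919 and 0.958 FPKM in spleen-primed cells (1.31 ± 0.14, adjusted p = 0.000196). For Itga4 the difference between primed groups was -0.17 ± 0.11, adjusted p = 0.301 and for Itgb7 -0.18 ± 0.07, adjusted p = 0.0821, neither past the threshold. Itgb1 was higher in spleen-primed cells, at 419, 424 and 389 FPKM (-1.62 ± 0.08, adjusted p = 4.56e-06).

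Of 12 retinoic acid genes 5 were higher, 5 lower and 2 not called, with a median of -0.28. The shares higher and lower were 41.7% each, against 45.5% and 33.2% of all genes tested. The lower count was 3 when naive 1, naive 2, naive 3 or MLN-primed 1 was left out. The receptor genes Rara and Rarg both fell. Rara was at 26.3, 25.2 and 28.3 FPKM in naive and 5.32, 7.65 and 7.91 FPKM in MLN-primed libraries (log2 change -1.81 ± 0.16, adjusted p = 3.43e-06). Rarg fell from 19.4 ± 0.486 to 2.8 ± 0.273 FPKM (log2 change -2.43 ± 0.10, adjusted p = 1.09e-08). Rxra, for a partner receptor, rose from 4.85 ± 0.137 to 6.56 ± 0.449 FPKM (log2 change 0.37 ± 0.09, adjusted p = 0.00409), while Rxrb fell from 30.4 ± 1.93 to 18.9 ± 0.224 FPKM. Hic1, a repressor induced by retinoic acid in intestinal immune cells, was at 0.271, 0.461 and 0.159 FPKM in naive and 8.37, 10.4 and 10.9 FPKM in MLN-primed libraries (log2 change 3.07 ± 0.12, adjusted p = 6.79e-09). Spleen-primed libraries had 1.81, 1.72 and 2.04 FPKM of Hic1. P2rx7, for an ATP receptor that retinoic acid can raise in T cells, was at 1.21, 1.34 and 1.25 FPKM in naive and 2.42, 3.0 and 3.08 FPKM in MLN-primed libraries (log2 change 0.75 ± 0.09, adjusted p = 3.18e-05). Spleen-primed libraries had 0.26, 0.154 and 0.309 FPKM of P2rx7. Relative to spleen-primed cells Hic1 was higher by 1.93 ± 0.12, adjusted p = 1.45e-05 and P2rx7 by 1.62 ± 0.09, adjusted p = 1.01e-05. P2rx7 levels lay above naive after priming in the MLN and below naive in spleen-primed cells.

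Of 25 genes high in resident memory cells of tissues, 11 were higher and 14 lower than naive, and of 27 genes low in such cells 10 were higher and 15 lower. The shares higher and lower were 44% and 56% in the first list and 37% and 55.6% in the second. Among all genes tested they were 45.5% and 33.2%. Higher members of the first list included Hic1, with the largest rise of the list, Litaf, Itga1 and Icos. Itga1, for CD49a, rose from 0.136 ± 0.0548 to 3.08 ± 0.568 FPKM and Icos from 9.09 ± 2.7 to 29.6 ± 1.17 FPKM. Lower ones included Cd69, Itgae and Vps37b, with Vps37b from 58 ± 5.26 to 14 ± 0.765 FPKM. In the list of genes low in resident cells, Klrg1, Cx3cr1, S1pr5 and Dapk2 were higher, with S1pr5 from 0.441 ± 0.209 to 4.22 ± 0.314 FPKM. The transforming growth factor beta pathway can raise Itgae, and its list had 13 lower and 2 higher of 16. The list mixes signalling genes with inhibitors such as Smad7, so these counts give no direction of the pathway. Its part in the Itgae values was not tested. The receptor gene Tgfbr2 fell from 69.6 ± 6.09 to 23 ± 2.45 FPKM. Smad4 fell from 47.5 ± 3.37 to 14.8 ± 0.802 FPKM and the inhibitor Smad7 from 18.4 ± 3.97 to 1.85 ± 0.539 FPKM, while Smad3 rose from 9.23 ± 0.50 to 20.6 ± 3.25 FPKM.

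**Figure D3:**
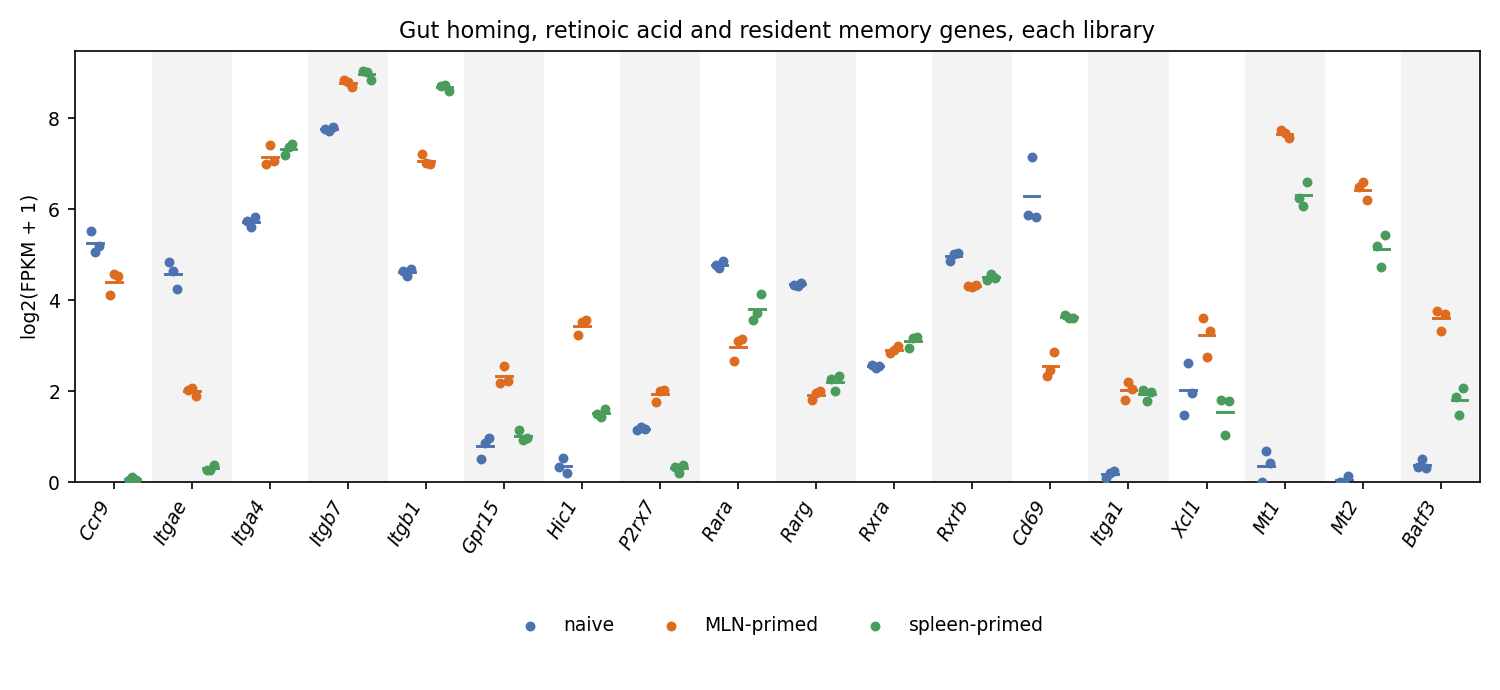
log2(FPKM + 1) of 18 genes in each of the 9 libraries, 3 points per group with a bar at the mean. Ccr9 and Itgae step down from naive (blue) to MLN-primed (orange) to spleen-primed cells (green), Hic1, Gpr15, Mt1, Mt2 and Batf3 are highest in MLN-primed cells, and Itga4 and Itgb7 lie above naive in both primed groups.

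Genes of the T cell receptor complex and its signalling were 14 lower, 4 higher and 7 not called of 25, with a median of -0.55. Cd3g was at 743, 691 and 731 FPKM in naive and 294, 285 and 291 FPKM in MLN-primed libraries (log2 change -1.31 ± 0.06, adjusted p = 2.82e-08), and Cd8b1, for the coreceptor beta chain, changed by -1.06 ± 0.07. The signalling kinase gene Lck, picked after its values were seen, was at 366, 385 and 422 FPKM in naive and 385, 384 and 397 FPKM in MLN-primed libraries (log2 change -0.0049 ± 0.0766, adjusted p = 0.957). Zap70, Lat, Ptpn22 and Ptpn6, the members called higher, changed by at most 0.46, and all of them changed sign under quantile normalisation, where 24 of 25 members were called lower. The Ptpn6 call was also lost without naive 2, MLN-primed 2 or MLN-primed 3.

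Immediate early genes, which answer receptor signals and also cell handling, were higher in naive cells. Of 15 tested 14 were lower in MLN-primed cells, none was higher, and the median was -1.92. Zfp36, for an RNA-binding protein that limits cytokine messages, was at 101, 246 and 139.7 FPKM in naive and 13.6, 20.3 and 25.3 FPKM in MLN-primed libraries (log2 change -2.92 ± 0.30, adjusted p = 8.63e-06). Egr1 was at 17.2, 21.6 and 9.69 FPKM in naive and 2.38, 2.55 and 3.43 FPKM in MLN-primed libraries (log2 change -2.12 ± 0.25, adjusted p = 2.01e-05). Jund was at 97.3, 176 and 106 FPKM in naive and 44, 43.3 and 45.3 FPKM in MLN-primed libraries (log2 change -1.44 ± 0.18, adjusted p = 3.46e-05). Naive 2 stood apart from the other naive libraries for this list, whose sums were 464, 1699.7 and 646 FPKM in naive and 212, 212 and 239 FPKM in MLN-primed libraries. Fos and Jun, picked after their values were seen, spread widely in naive cells. Fos was at 3.22, 187 and 50.3 FPKM in naive and 0.506, 0.893 and 1.73 FPKM in MLN-primed libraries (log2 change -4.12 ± 1.05, adjusted p = 0.00468). Jun was at 3.13, 99.8 and 24.8 FPKM in naive and 0.784, 1.09 and 2.29 FPKM in MLN-primed libraries (log2 change -3.26 ± 0.89, adjusted p = 0.0067). Without naive 2, 11 members were lower, Fos changed by -2.89, adjusted p = 0.0124, and Jun by -2.16, adjusted p = 0.0144. Without naive 1, the lowest naive library for both, Fos changed by -5.63, adjusted p = 8.47e-06, and Jun by -4.47, adjusted p = 5.71e-05, and 11 members were lower then too. Cd69 and myeloid markers were also unequal among the naive libraries, and whether cell handling or other cells had a part was not tested.

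Genes of cell division had the highest medians of the 40 lists. All 42 tested DNA replication genes were higher in MLN-primed cells, with a median of 2.92, and this held under both other scalings. Of 45 mitosis and spindle genes 44 were higher with a median of 4.67, while 43 were higher and 1 lower under quantile normalisation. Rrm2, for the ribonucleotide reductase subunit that limits nucleotide supply, was at 2.62, 1.95 and 3.23 FPKM in naive and 404, 399 and 373 FPKM in MLN-primed libraries (log2 change 6.79 ± 0.11, adjusted p = 3.6e-11). Cdc6, which loads the helicase at origins, was at 0.248, 0.154 and 0.214 FPKM in naive and 31.9, 29.7 and 28.5 FPKM in MLN-primed libraries (log2 change 4.69 ± 0.08, adjusted p = 4.47e-11). The helicase gene Mcm5 rose from 13.7 ± 0.885 to 249 ± 12.7 FPKM. Birc5, for the survivin subunit of the chromosomal passenger complex, was at 1.92, 1.52 and 2.44 FPKM in naive and 374, 358 and 362 FPKM in MLN-primed libraries (log2 change 6.96 ± 0.10, adjusted p = 3.27e-11). Ccnb1, for the mitotic cyclin B1, was at 0.751, 0.621 and 0.864 FPKM in naive and 153, 144 and 134 FPKM in MLN-primed libraries (log2 change 6.37 ± 0.08, adjusted p = 1.75e-11). Plk1, a mitotic kinase, was at 0.624, 0.405 and 0.586 FPKM in naive and 106, 128 and 120.3 FPKM in MLN-primed libraries (log2 change 6.27 ± 0.10, adjusted p = 3.6e-11). The replicates lay close together for these genes. Top2a, for topoisomerase II, was at 2.58, 1.85 and 3.51 FPKM in naive and 161, 219 and 194 FPKM in MLN-primed libraries (log2 change 5.73 ± 0.17, adjusted p = 9.27e-10).

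Mki67, the proliferation marker Ki-67, spread more widely, at 0.388, 0.399 and 0.903 FPKM in naive and 8.32, 76 and 84.1 FPKM in MLN-primed libraries (log2 change 4.67 ± 0.85, adjusted p = 0.000522). Spleen-primed libraries spread too, at 13.4, 22.4 and 87.1 FPKM. The mitosis genes Cenpe (log2 change 3.24, adjusted p = 0.000407) and Cenpf (2.83, adjusted p = 8.06e-05) also had high adjusted p for the size of their changes. MLN-primed 1 was far below the other MLN-primed libraries for Mki67 but level with them for Ccnb1 and Birc5. Without that library the Mki67 change was 5.71, adjusted p = 8.84e-06. Across genes, log2 values of MLN-primed 1 fell by 0.097 per doubling of transcript length relative to the group mean, while they rose by 0.067 and 0.03 in the other MLN-primed libraries, and the transcript of Mki67 is long. The same slopes were -0.056, -0.029 and 0.085 in spleen-primed 1, 2 and 3. Whether transcript length had a part in the low values was not tested.

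G1 genes came with the same direction, 17 higher and 4 lower of 21. Ccne1, for cyclin E1, was at 6.5, 5.98 and 6.12 FPKM in naive and 99.2, 87.8 and 91.9 FPKM in MLN-primed libraries (log2 change 3.71 ± 0.08, adjusted p = 1.16e-10). E2f1 rose from 1.19 ± 0.188 to 16.6 ± 0.993 FPKM and E2f2 from 2.92 ± 0.25 to 58.2 ± 6.79 FPKM. The inhibitor Cdkn1b, for p27, fell from 45.8 ± 2.34 to 12.4 ± 0.852 FPKM. Ccnd2 fell from 53.3 ± 11.1 to 23.6 ± 0.339 FPKM while Ccnd3 rose from 71.2 ± 0.381 to 258 ± 4.6 FPKM. Of 49 histone cluster genes 43 were higher, most of them low in FPKM, with Hist1h4i from 4.61 ± 1.28 to 58.5 ± 6.48 FPKM. With a filter of 5 FPKM in 3 libraries only 3 were called higher, as the others left the tested genes. The near-identical copies of this family make single members uncertain.

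Genes that moved together were read for short motifs in the 250 bases before their starts, from RefSeq promoters on GRCm38.p6, on both strands. Here and below a gene can have several promoters. The E2F letters TTTCCCGC, TTTGGCGC, TTTGCCGC or TTTCGCGC stood in 10 of 42 promoters of DNA replication genes (23.8%), against 3.6% of 10436 promoters of tested genes and 1.9% of 32851 promoters in all. Those 42 promoters belong to 34 genes, of which 10 held a match. The cell cycle homology region TTTGAA stood in 14 of 39 promoters of mitosis genes (35.9%), against 10.9% and 16.0%. Those 39 promoters belong to 37 genes, of which 13 held a match. These windows show the matches in capitals, neighbouring or overlapping matches joined, for members picked after their values were seen, as examples of rising genes:
Mcm6 (chr1:128359772-128359851, minus strand): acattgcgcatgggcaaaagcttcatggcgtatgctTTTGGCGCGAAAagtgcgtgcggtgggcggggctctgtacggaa
Cdc6 (chr11:98907977-98908056, plus strand): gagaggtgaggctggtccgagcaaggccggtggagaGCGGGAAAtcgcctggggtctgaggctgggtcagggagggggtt
Orc1 (chr4:108579391-108579453, plus strand): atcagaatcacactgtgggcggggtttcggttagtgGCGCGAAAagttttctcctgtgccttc
Ccnb2 (chr9:70421680-70421757, minus strand): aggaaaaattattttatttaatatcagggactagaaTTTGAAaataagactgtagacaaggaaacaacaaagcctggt
Cdk1 (chr10:69352942-69353019, minus strand): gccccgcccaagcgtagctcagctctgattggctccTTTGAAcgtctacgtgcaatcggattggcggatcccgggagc
A match is a description of these letters and not a binding site. Mcm6 rose from 40.2 ± 2.61 to 298 ± 17.5 FPKM, Orc1 from 0.144 ± 0.0696 to 16.1 ± 0.665 FPKM, Ccnb2 from 1.31 ± 0.699 to 197 ± 5.18 FPKM and Cdk1 from 0.754 ± 0.262 to 93.1 ± 5.64 FPKM.

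Genes of the nucleolus and ribosome assembly were 36 higher and 1 lower of 42 (median 0.73), and 22 higher and 3 lower under quantile normalisation. Bop1, needed for the large subunit, rose from 22.2 ± 0.353 to 60.5 ± 1.5 FPKM (log2 change 1.4 ± 0.06, adjusted p = 8.54e-09). Cytosolic ribosomal protein genes went the other way, 71 lower and 4 higher of 85 (median -0.77), but under quantile normalisation 51 were lower and 19 higher. They made up 45.3% ± 2.0 of FPKM in naive and 27.3% ± 1.72 in MLN-primed libraries. Rps29 was at 7771, 9593 and 8322 FPKM in naive and 3355, 3108 and 3232 FPKM in MLN-primed libraries (log2 change -1.4 ± 0.09, adjusted p = 2.87e-07). The members called higher were Rpl26, Rpl30, Rpl7l1 and Rps27l, and single members of this family share reads with many copies, so their values are uncertain. FPKM are relative, so the smaller share of this family and the larger share of others cannot be told apart.

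All 20 tested aminoacyl-tRNA synthetase genes were higher (median 1.25), and 18 under quantile normalisation, with Gars from 49.1 ± 4.7 to 181 ± 3.9 FPKM. Of 28 translation factors 18 were higher and 6 lower, with Eif5a from 373 ± 10.6 to 1392 ± 144 FPKM and Eif4a1 from 308 ± 19.9 to 911 ± 97.2 FPKM among the higher ones. Eef1a1, the most abundant factor, was at 13633, 16535 and 14349 FPKM in naive and 10598, 8462 and 8842 FPKM in MLN-primed libraries (log2 change -0.68 ± 0.13, adjusted p = 0.00091) and turned to a rise under quantile normalisation. All 37 tested proteasome genes were higher (median 1.31), while 31 were higher and 1 lower under quantile normalisation, with Psmc1 from 49.8 ± 2.66 to 176 ± 4.06 FPKM. Myc, for a transcription factor of cell growth, was at 28.3, 34.5 and 34 FPKM in naive and 21.5, 26 and 25.2 FPKM in MLN-primed libraries (log2 change -0.40 ± 0.14, adjusted p = 0.0244), and that call was lost without naive 2, naive 3 or MLN-primed 1 (adjusted p = 0.075 to 0.0793). In the MYC network 2 of 9 were higher and 7 lower, with the repressor genes Mxd3 rising from 1.13 ± 0.171 to 51.2 ± 2.91 FPKM and Mxd4 falling from 22.1 ± 1.93 to 3.95 ± 0.301 FPKM. The E-box letters CACGTG stood in 2 of 46 promoters of the nucleolar list (4.3%), against 8.7% of promoters of tested genes and 6.0% of all.

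**Figure D4:**
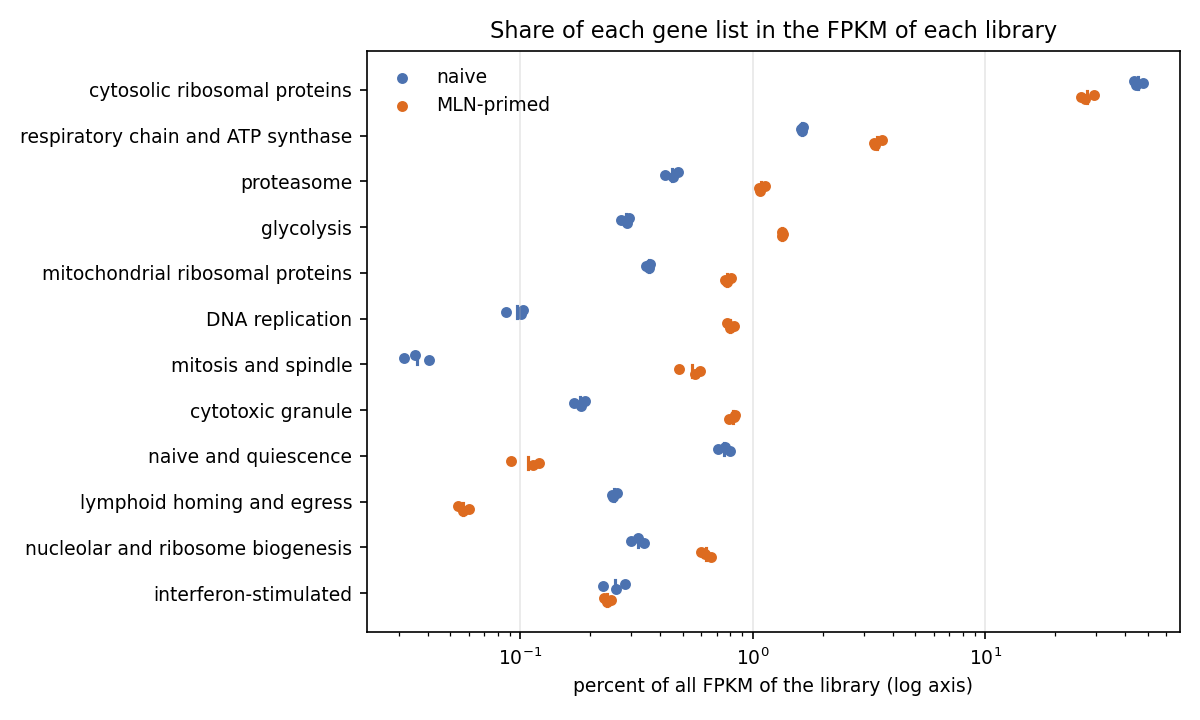
Share of 12 gene lists in the FPKM of each library, as a percent on a log axis, 3 points per group with a bar at the mean. Ribosomal protein, naive state and homing genes take a smaller share in MLN-primed (orange) than in naive libraries (blue), the division, glycolysis, respiratory chain and granule genes a larger one, and the shares of the interferon-stimulated list overlap.

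Glycolysis genes were 16 higher and 2 lower of 21 (median 1.72), and their share went from 0.284% ± 0.0113 to 1.34% ± 0.00932 of FPKM. Tpi1, for triose phosphate isomerase, was at 34.3, 32.4 and 33.5 FPKM in naive and 391, 358 and 359 FPKM in MLN-primed libraries (log2 change 3.43 ± 0.06, adjusted p = 5.09e-11). Gapdh was at 447, 508 and 473 FPKM in naive and 3158, 2966 and 3023 FPKM in MLN-primed libraries (log2 change 2.68 ± 0.07, adjusted p = 4.56e-10). Hk2, the inducible hexokinase, was at 0.368, 0.244 and 0.499 FPKM in naive and 7.22, 8.43 and 7.66 FPKM in MLN-primed libraries (log2 change 2.68 ± 0.11, adjusted p = 1.03e-08). The glucose transporter gene Slc2a1 was at 13.4, 13.7 and 13.7 FPKM in naive and 29.6, 27.6 and 26.9 FPKM in MLN-primed libraries (log2 change 0.99 ± 0.08, adjusted p = 1.54e-06). Pdk1, for a kinase that keeps pyruvate out of the TCA cycle, fell from 46.5 ± 3.16 to 7.22 ± 0.73 FPKM (log2 change -2.53 ± 0.11, adjusted p = 1.06e-08), as did Ldhb, from 8.77 ± 2.7 to 1.39 ± 0.155 FPKM. Pdk1 and Ldhb were the members called lower.

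Mitochondrial genes were mostly higher. Of 76 respiratory chain and ATP synthase genes 69 were higher and 1 lower (median 1.05), and 53 and 9 under quantile normalisation, with Cox5b from 159.6 ± 13.2 to 595 ± 42.9 FPKM (log2 change 1.89 ± 0.08, adjusted p = 1.26e-08). Of 73 mitochondrial ribosomal protein genes 69 were higher and 2 lower (median 1.07), the opposite of the cytosolic family, and 59 and 5 under quantile normalisation. In the TCA cycle and glutamine list 21 of 25 were higher, with Mdh2 from 154 ± 1.66 to 442 ± 17.8 FPKM and Got1 from 11 ± 0.59 to 41.1 ± 1.83 FPKM.

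Of 17 serine and one-carbon genes 14 were higher, with a median of 2.01. Asns, for asparagine synthetase, was at 0.139, 0.0668 and 0.0251 FPKM in naive and 18.5, 13.8 and 13.1 FPKM in MLN-primed libraries (log2 change 3.89 ± 0.13, adjusted p = 1.93e-09). Psat1, of serine synthesis, rose from 14.1 ± 0.91 to 161 ± 22.8 FPKM. The thymidylate synthase gene Tyms rose from 1.66 ± 0.149 to 46.9 ± 4.94 FPKM. Ddit3 and Trib3, stress genes of the same amino acid response as Asns, fell, from 17.3 ± 4.83 to 5.13 ± 0.795 FPKM and from 2.1 ± 0.414 to 0.687 ± 0.112 FPKM. Of 24 nucleotide and pentose phosphate genes 21 were higher, with Umps from 9.14 ± 0.712 to 45.2 ± 3.06 FPKM. Of 29 cholesterol genes 25 were higher and 3 lower, with a median of 1.13. Sqle, for squalene epoxidase, was at 4.88, 4.52 and 4.1 FPKM in naive and 32.5, 33 and 32.6 FPKM in MLN-primed libraries (log2 change 2.62 ± 0.07, adjusted p = 7.69e-10). Soat2, which esterifies cholesterol, rose from 0.0756 ± 0.0735 to 7.01 ± 0.313 FPKM. The lower members included the exporter genes Abcg1, from 17.4 ± 2.96 to 2.3 ± 0.179 FPKM, and Abca1, at 2.29, 2.44 and 5.77 FPKM in naive and 0.00374, 0.00388 and 0.0148 FPKM in MLN-primed libraries. These exporter genes thus went opposite to Sqle and Soat2.

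Interferon-stimulated genes were mostly lower in MLN-primed cells, 28 lower, 6 higher and 8 not called of 42 (median -0.88). Rtp4 was at 33.9, 18.3 and 26.6 FPKM in naive and 0.718, 1.03 and 0.863 FPKM in MLN-primed libraries (log2 change -3.83 ± 0.19, adjusted p = 3.44e-08). Ifit3, for a protein that binds viral RNA complexes, was at 14.6, 9.76 and 15.7 FPKM in naive and 0.563, 0.598 and 0.641 FPKM in MLN-primed libraries (log2 change -3.14 ± 0.18, adjusted p = 9.44e-08). Usp18, which removes ISG15 from proteins, fell from 8.16 ± 0.661 to 1.05 ± 0.101 FPKM. Naive 2 was the lowest naive library for Rtp4 and Ifit3, yet far above every MLN-primed one. Ifitm1, for a membrane protein that blocks virus entry, went the other way, at 0.0934, 0.226 and 0.168 FPKM in naive and 25.1, 24.8 and 17 FPKM in MLN-primed libraries (log2 change 4.31 ± 0.19, adjusted p = 1.49e-08). The proteasome subunit genes Psmb8 and Psmb9 of the same list were higher, from 264 ± 8.24 to 397 ± 37.7 FPKM and from 102 ± 4.81 to 202 ± 17.8 FPKM, though the sign of the Psmb8 change turned under quantile normalisation (-0.011). The list summed to 0.255% ± 0.0276 of FPKM in naive and 0.237% ± 0.00909 in MLN-primed libraries, and the groups overlapped.

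The interferon response letters GAAANNGAA stood in 16 of 40 promoters of this list (40.0%), against 6.3% of promoters of tested genes and 7.1% of all. Shown for Ifit3, which fell, and for Isg15 and Ifit1, picked after their values were seen, with matches in capitals:
Ifit3 (chr19:34583338-34583418, plus strand): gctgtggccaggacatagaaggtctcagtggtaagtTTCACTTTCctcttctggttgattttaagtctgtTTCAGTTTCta
Ifit1 (chr19:34640744-34640824, plus strand): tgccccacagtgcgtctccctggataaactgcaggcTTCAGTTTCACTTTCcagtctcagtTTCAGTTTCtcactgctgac
Isg15 (chr4:156200852-156200932, minus strand): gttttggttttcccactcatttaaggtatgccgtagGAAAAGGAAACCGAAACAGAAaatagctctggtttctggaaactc
Isg15 fell from 22.2 ± 6.67 to 4.22 ± 0.705 FPKM and Ifit1 from 14.2 ± 4.87 to 0.357 ± 0.0534 FPKM. The forkhead letters TGTTTAC, of the FOXO motif, stood in 3 of 43 promoters of the naive list (7.0%), against 2.2% of promoters of tested genes and 3.2% of all. Of these 3 genes, Dapl1 and Txnip are shown, and Txnip, picked after its values were seen, encodes a protein that limits glucose uptake and fell from 314 ± 36.8 to 28.7 ± 0.485 FPKM:
Dapl1 (chr2:59484453-59484531, plus strand): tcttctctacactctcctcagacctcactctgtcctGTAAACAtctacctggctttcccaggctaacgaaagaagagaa
Txnip (chr3:96557800-96557878, plus strand): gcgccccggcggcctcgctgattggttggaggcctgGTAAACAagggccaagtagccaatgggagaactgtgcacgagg
The sterol response letters TCACNCCAC stood in 1 of 27 promoters of the cholesterol list (3.7%), against 1.0% of promoters of tested genes and 1.1% of all.

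**Figure D5:**
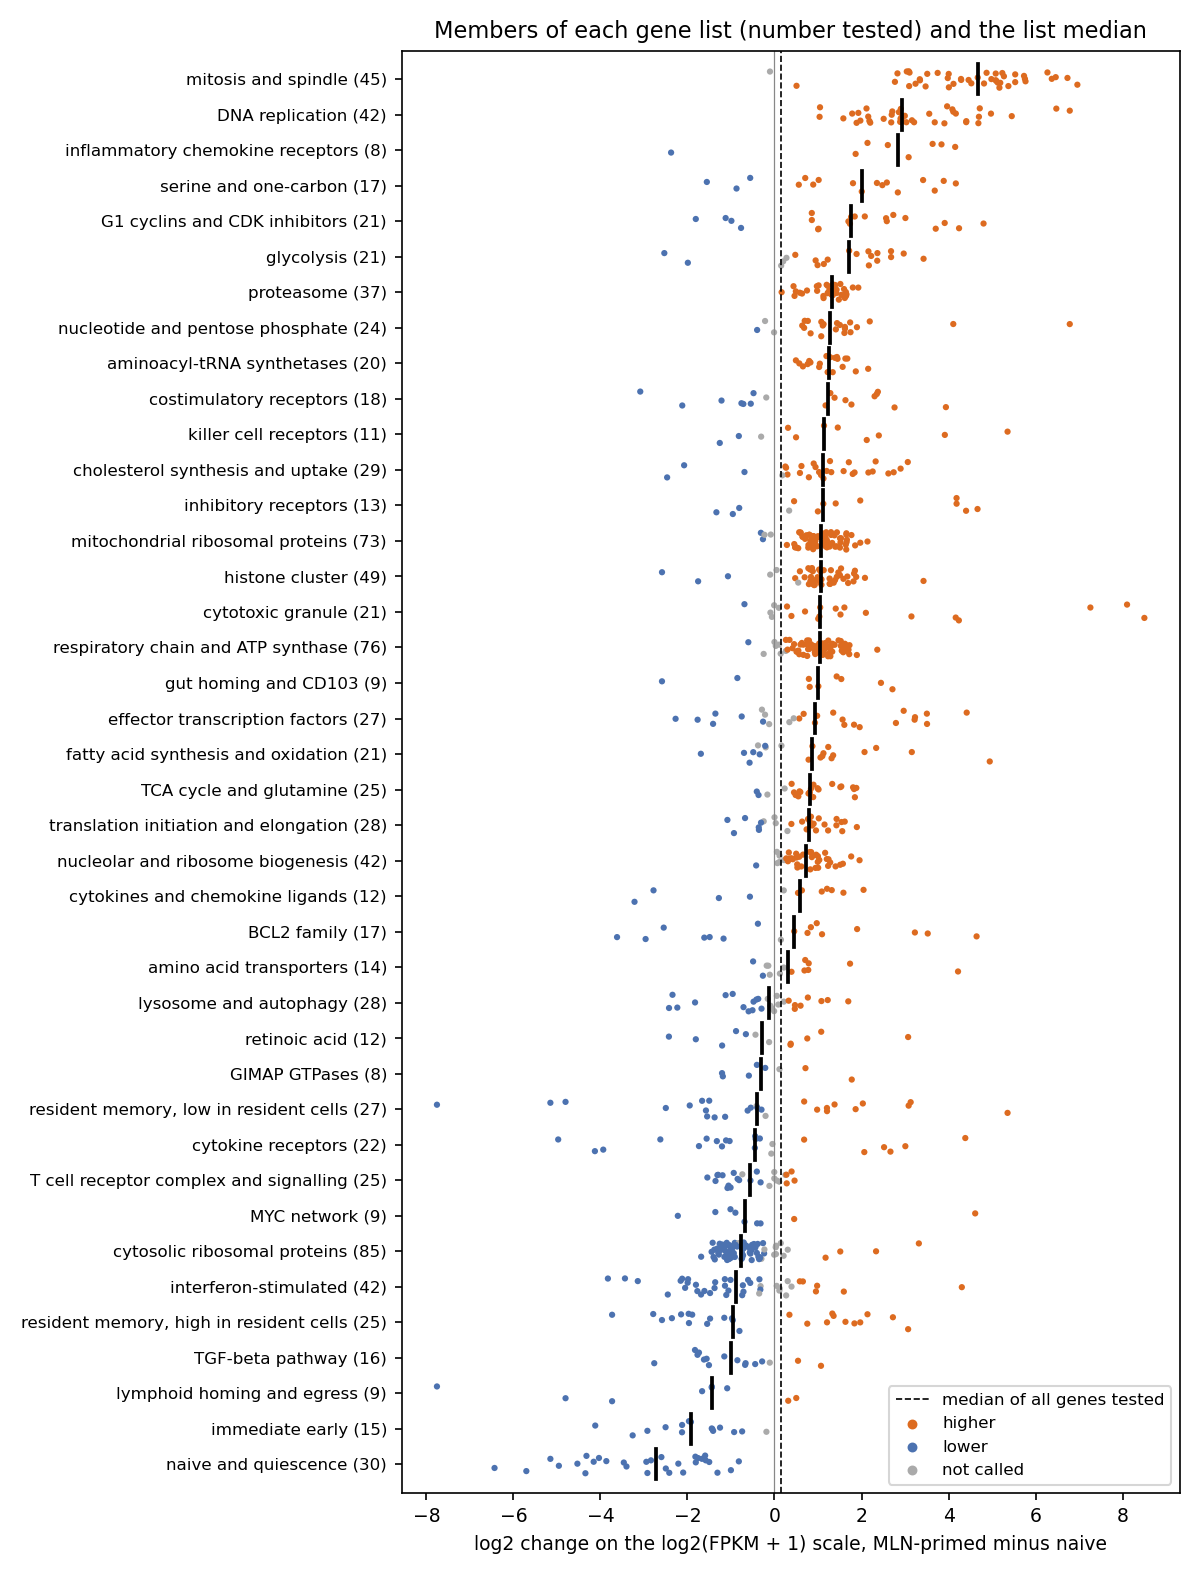
log2 change from naive to MLN-primed cells (x axis, log2(FPKM + 1) scale) of each tested member of 40 gene lists, ordered by list median (black bars). The dashed line is the median of all genes tested, 0.15; the mitosis list lies farthest to the right with a median of 4.67 and the naive list farthest to the left with -2.72.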

How the data were processed

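Per the labels' protocols, a QIAGEN RNeasy Plus Micro kit yielded the RNA and a TruSeq Stranded mRNA kit the libraries. The authors deposited a gene table of FPKM (fragments scaled by transcript length and library total). Per the submitters' processing notes, TopHat and Cufflinks were used with mm10. Their versions and the handling of strand are not stated there. The 24067 rows held 131 without a symbol (0.0479% of FPKM), which were left out. Total FPKM were 612887 to 720165 per library. No further scaling was applied.

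One model over all 9 libraries was fitted to log2(FPKM + 1) by limma-trend (limma 3.58.1, R 4.3.3, two-sided, Benjamini-Hochberg over 10185 genes with at least 1 FPKM in 3 libraries, threshold 0.05), with the contrasts MLN-primed minus naive and MLN-primed minus spleen-primed. The comparison, the 40 gene lists and the 11 marker lists were chosen with earlier results of these data known, so no list is tested and counts stand beside those of all genes. Named genes are the 15 largest rises and 15 largest falls that were called, did not overlap and reached a mean of 5 FPKM (without predicted models, small RNAs, pseudogenes and receptor segments), up to 5 members a list and direction by p, and fixed genes. Some genes under this rule are not reported here. Members without a value or under the filter were not analysed here. The model was also run on simulated data in which few genes changed, all upward. Most genes differ here, in both directions, so that run does not check these results. Relative depth was read from FPKM under 0.08. Promoters are RefSeq's. Python 3.11.15, numpy 2.4.6, pandas 2.3.3 and matplotlib 3.10.9 were used. Alternatives changed the pseudocount, filter, scaling, variance model, libraries fitted, replicate block and each library.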

Additional observations from a re-analysis of the deposited data

Results flagged for a closer look

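For 14 of the 65 genes that rank among the 15 largest changes each way or are on the list of fixed genes, the response to priming differed between the organs, by the test of MLN-primed against spleen-primed cells at an adjusted p of 0.05 and a size of at least 1 on the log2 scale (limma-trend, 3 libraries a group). The naive libraries cancel from this difference. It was positive, with more transcript after priming in the MLN, for Ccr9 (4.33), Hic1 (1.93), Itgae (1.68), P2rx7 (1.62), Mt1 (1.35) and Mt2 (1.31). It was negative for Eomes (-1.04), Cd69 (-1.08), Ifng (-1.22), Klrg1 (-1.23), Dapl1 (-1.48), Prf1 (-1.55), Klrk1 (-1.82) and Ccl5 (-2.42). Prf1 was at 30.7, 28.2 and 27.2 FPKM in MLN-primed against 89.7, 89.8 and 78 FPKM in spleen-primed libraries. Of the 65 genes, 34 passed the test of the difference at any size, against 30.4% of the 10185 genes tested. The 65 were picked for their change against naive, which uses the same MLN-primed libraries, or as fixed genes of interest. Their share is therefore no test of an excess. The share of all genes at a size of at least 1 was not counted, so the 14 have no such share beside them. Organ and the title words "oral" and "iv" change together, so their parts cannot be told apart.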

How the results depend on the processing

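Every alternative kept the counts of genes higher and lower within 1.5 times of 4635 and 3385. They were 4628 and 3357 with a pseudocount of 0.1, 5523 and 4223 without a filter, 3922 and 2384 with a filter of 5 FPKM, 4143 and 3911 under median-of-ratios scaling, 3843 and 4141 under quantile normalisation, 4627 and 3392 without a variance trend, 4639 and 3381 with robust variance, and 4499 and 3350 with only the 6 libraries. With the replicate number as a block, the replicate block, they were 4717 and 3490. Same-numbered naive and MLN-primed libraries had correlations of deviations from the group mean of 0.145, -0.241 and 0.116. Of 3 naive libraries, 1 correlated best with its own number. With only 3 libraries a group, these values cannot decide whether the numbers pair the libraries. Leaving out 1 library gave 4376 to 4591 higher and 2822 to 3290 lower. Under quantile normalisation 114 calls turned to the opposite direction, among the genes named Eef1a1 (0.17), Lat (-0.33), Ptpn22 (-0.26), S1pr4 (-0.31) and Zap70 (-0.14), while Itgal (-0.11), Psmb8 (-0.011) and Ptpn6 (-0.24) changed sign without a call. Lck, not called as deposited, was at -0.65 there. Quantile normalisation also left 1 member higher in each of the GIMAP, TGF-beta and MYC lists, and 5 amino acid transporters, 3 granule genes and 3 nucleotide genes lower. Under median-of-ratios scaling the calls of Lat, Ptpn22, Ptpn6 and S1pr4 were lost. The cause was not tested. Of 40 gene lists and 11 marker lists, small counts moved most when 1 library was left out. Killer cell receptors lower were 1 without naive 2, naive 3 or MLN-primed 3. Mitochondrial ribosomal proteins lower were 1 without naive 1, MLN-primed 2 or MLN-primed 3. Respiratory chain genes lower were 2 without MLN-primed 1, and Cxcr5 left the tested genes without any 1 naive library. Larger counts moved in other settings. With the filter of 5 FPKM, histone genes higher were 3 in place of 43 and immediate early genes lower 6 in place of 14. Inhibitory receptors higher were 5 in place of 9 and killer cell receptors higher 4 in place of 8. Under quantile normalisation, T cell receptor genes lower were 24 in place of 14 and nucleolar genes higher 22 in place of 36. Among low genes, the counting error is unknown, since depth is known only relative to naive 1.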

Other observations

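Of 17 BCL2 family genes 9 were higher (52.9%, against 45.5% of all genes tested) and 7 lower (41.2%, against 33.2%). Bcl2, the survival gene of naive cells, was at 27.8, 30 and 29 FPKM in naive and 1.19, 1.56 and 1.57 FPKM in MLN-primed libraries (log2 change -3.62 ± 0.16, adjusted p = 1.59e-08). Bcl2a1d, for a short-lived survival protein of activated cells, was at 1.78, 1.78 and 2.42 FPKM in naive and 84.3, 69.9 and 67.3 FPKM in MLN-primed libraries (log2 change 4.64 ± 0.11, adjusted p = 2.43e-10), and its copies Bcl2a1a and Bcl2a1b, which share reads with it, were higher too. The death genes Bcl2l11, for BIM, and Bbc3, for PUMA, fell from 19.7 ± 2.66 to 2.52 ± 0.145 FPKM and from 14.6 ± 2.55 to 0.985 ± 0.0698 FPKM, while the pore gene Bak1 rose from 26.9 ± 1.33 to 103 ± 2.63 FPKM. Transcripts of Bcl2 and of these death genes thus fell together.

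GIMAP genes, for GTPases of lymphocytes, were 5 lower and 2 higher of 8. Gimap6 fell from 388 ± 22.4 to 170.1 ± 10.2 FPKM and Gimap3 from 295 ± 8.48 to 128 ± 18.1 FPKM, while Gimap7 rose from 46 ± 3.56 to 159.7 ± 1.86 FPKM. Lysosome and autophagy genes were 13 lower and 8 higher of 28 (17 and 4 under quantile normalisation), with the protease gene Ctss from 117 ± 2.9 to 21 ± 0.637 FPKM and the cholesterol carrier gene Npc2 from 202 ± 2.19 to 42.3 ± 2.56 FPKM lower and Gabarapl1, of autophagosomes, higher, from 4.36 ± 0.815 to 16.3 ± 1.32 FPKM. Ctss is also abundant in the myeloid cells whose markers were unequal among naive libraries, and their part was not tested. Of 21 fatty acid genes 12 were higher (57.1%, against 45.5% of all genes tested) and 6 lower (28.6%, against 33.2%). Fabp5, for a fatty acid carrier, was at 5.17, 3.99 and 5.48 FPKM in naive and 201, 165 and 174 FPKM in MLN-primed libraries (log2 change 4.95 ± 0.11, adjusted p = 1.86e-10) and Scd2, for a desaturase, rose from 8.59 ± 1.72 to 83.7 ± 1.97 FPKM. Of 14 amino acid transporters 7 were higher (50%) and 2 lower (14.3%). Slc7a5, for the leucine carrier, rose from 15.7 ± 1.39 to 54.4 ± 1.37 FPKM. Itgax, for CD11c, which activated CD8 T cells can also carry, was at 0.601, 1.26 and 1.34 FPKM in naive and 34.1, 45.9 and 46.1 FPKM in MLN-primed libraries, and Batf3, for a factor of dendritic cells and activated T cells, at 0.262, 0.423 and 0.237 FPKM in naive and 12.7, 9.04 and 12.1 FPKM in MLN-primed libraries, while the MHC class II genes of dendritic cells were near 0 in MLN-primed libraries.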
